A study of Mus musculus with 25 samples.

Results

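Cd79a, Cd79b, Ms4a1, Blk, Igha, Jchain, Prdm1 and Mzb1 are 8 genes of B cells and of the antibody-secreting plasma cells that arise from them, and their transcripts were followed in mouse lung after bleomycin, with and without the prostaglandin F2α receptor. They were chosen by symbol, and each probe set (a group of short DNA probes that reads 1 transcript) annotated to 1 of these symbols alone was taken. That gave 11 probe sets of 34945 with a single symbol, for 8 of 18193 genes: 3 for Igha, 2 for Ms4a1 and 1 for each of the others. For Igha and Ms4a1 the brightest probe set on average was taken as the gene's value, and the further ones are given beside it. All 8 genes were tested, with 7 above the array median in 25 of 25 arrays and Blk in 24.

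The lungs came from 25 female mice, 13 wild type (WT) and 12 FP-KO, whose labels give no strain, age or design of the knockout. FP is the prostaglandin F2α receptor, encoded by Ptgfr, and bleomycin is a cytotoxic drug that injures lung tissue and leads to scarring. The series has 1 treatment protocol, bleomycin at 1 mg/kg in saline instilled through the trachea on Day 0. Whole-lung RNA was taken on Day 0, Day 7 and Day 14 from 4, 4 and 5 WT mice and from 4 FP-KO mice at each time. The series asks how expression in FP-KO lungs changes with time beside WT lungs. The labels call the Day 0 samples baseline and do not say whether those mice had received the drug. They name no group given saline alone, so effects of the drug and of time or instillation cannot be told apart. Each array is taken as 1 mouse by its title, and whether mice of a group shared a cage or litter is not given, so p-values measure the spread between these samples.

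A B cell carries a membrane antibody coupled to the signalling chains Cd79a and Cd79b, and Ms4a1 (CD20) and the kinase Blk are further parts of its surface and signalling machinery. On becoming a plasma cell it switches off much of this set under the repressor Blimp-1, encoded by Prdm1, and devotes itself to making antibody. In mucosal tissue such as the airway much of that antibody is IgA, whose heavy chain constant region is Igha, joined into dimers by the J chain (Jchain) and folded with help from the endoplasmic reticulum protein Mzb1. Blimp-1 is not restricted to plasma cells and also acts in T cells, myeloid cells and some epithelia. Igha and Jchain transcripts are made in very large amounts by each plasma cell.

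The promoters of Cd79a, Jchain and Prdm1 are shown because no other member was matched to a promoter. Jchain and Prdm1 moved in opposite directions in WT lungs, and Cd79a passed no test where its partner Cd79b did. Of the 8 members, 3 were matched in the RefSeq promoter table (build GRCm38.p6), which holds 250 bases before to 50 after each gene's start. Cd79a is at chr7:24897247-24897546 on the plus strand, Jchain at chr5:88527848-88528147 on the minus strand and Prdm1 at chr10:44458699-44458998 on the minus strand, each printed 5′ to 3′ along its gene with motif matches in capitals.
Cd79a: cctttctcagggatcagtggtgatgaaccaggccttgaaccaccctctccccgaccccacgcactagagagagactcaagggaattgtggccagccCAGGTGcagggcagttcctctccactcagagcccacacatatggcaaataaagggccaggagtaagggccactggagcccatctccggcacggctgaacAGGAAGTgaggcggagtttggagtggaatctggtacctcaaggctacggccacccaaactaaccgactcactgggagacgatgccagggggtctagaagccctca
Jchain: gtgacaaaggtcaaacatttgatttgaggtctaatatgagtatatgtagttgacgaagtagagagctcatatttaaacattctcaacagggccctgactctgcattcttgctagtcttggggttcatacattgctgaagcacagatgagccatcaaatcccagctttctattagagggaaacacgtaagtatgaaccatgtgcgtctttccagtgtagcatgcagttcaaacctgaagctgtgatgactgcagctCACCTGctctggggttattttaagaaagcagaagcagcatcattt
Prdm1: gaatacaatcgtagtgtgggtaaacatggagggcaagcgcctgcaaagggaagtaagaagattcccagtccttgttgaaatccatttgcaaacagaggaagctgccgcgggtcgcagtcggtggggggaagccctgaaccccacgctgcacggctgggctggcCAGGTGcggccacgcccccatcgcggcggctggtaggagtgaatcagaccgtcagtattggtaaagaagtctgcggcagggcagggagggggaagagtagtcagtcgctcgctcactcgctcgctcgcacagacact

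Both strands were searched for 6 motifs of B cell and plasma cell regulators, and no 2 matches overlapped. The E-box CAGGTG bound by the B lineage factor E2A stood once in each of the 3 promoters, with its first base at -154 from the start in Cd79a, at 6 in Jchain (as its complement CACCTG) and at -87 in Prdm1. That motif is common, found in 20.2% of 32851 promoters of 300 bases. The ETS motif AGGAAGT, present in 9.35% of promoters, was found at -55 in Cd79a and in neither of the other two. The octamer ATTTGCAT (1.74% of promoters) and the full palindrome of the B lineage factor EBF1 (0.904%) had no match in these windows. The Blimp-1 motif AGNGAAAG (8.63%) and the XBP1 motif GCCACGT (2.58%) had none either. Only full matches were counted, so sites that depart from a motif, such as an imperfect EBF1 palindrome, were not looked for. The absence of a match therefore does not show that a window, such as that of Cd79a, lacks a site for the factor. These letters are a description of the windows and say nothing of binding.

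Values are the deposited intensities, a linear brightness scaled to the same mean on each array, and they are compared within a probe set and not between genes. A change is a difference of log2 intensity, given with its limma standard error as ±. The words rose, fell and passed are kept for changes whose limma p, adjusted by Benjamini-Hochberg over 12062 tested genes, was below 0.05. The comparisons of Day 7 and Day 14 with Day 0 share the Day 0 mice. In whole-lung RNA, fewer cells of a type and less of a transcript per cell cannot be told apart. Ptgfr had a mean intensity of 304 ± 57.5 (SD, n = 4) in WT lungs on Day 0 and 45.7 ± 13.3 (SD, n = 4) in FP-KO lungs, and over all days no WT array was below 122.6 and no FP-KO array above 57.6. The labelled tissue carried its markers: surfactant protein C, Sftpc, ran from 26192 to 42589 over all arrays.

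Some Day 14 arrays stood apart from their group over all genes. On the second principal component, with 16.9% of the variance, WT mice No. 1 to 3 and FP-KO mice No. 1 and 2 of Day 14 lay between 27.66 and 30.05, while WT No. 4 and 5 and FP-KO No. 3 and 4 lay between -2.28 and 1.35. What separates these 2 sets of mice is not in the sources used here. FP-KO Day 14 No. 2 also lay at -28.9 on the first component (42.0% of the variance), among the Day 0 arrays, which ran from -35.0 to -24.8. The members' changes from Day 0 to Day 14 are therefore also given within each set, and FP-KO results without this mouse where that moved a call.

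Between Day 0 and Day 14 Cd79b, Ms4a1, Blk and Prdm1 fell in WT lungs while Igha and Jchain, the transcripts of IgA and its joining chain, rose. On Day 7, 1 of the 8 members had risen and 3 had fallen, against 17.1% of all genes tested that rose and 18.0% that fell. On Day 14, 2 had risen and 4 had fallen, with backgrounds of 19.1% and 19.5%. In FP-KO lungs 0 rose and 1 fell on Day 7 (12.6% and 10.7% of all genes), and 0 rose and 3 fell on Day 14 (1.85% and 1.41%). The median change of the 8 members was -0.62 and -0.44 in WT and -0.39 and -0.34 in FP-KO lungs on Days 7 and 14, beside medians between -0.01 and 0.01 over all genes tested. Of FP-KO against WT on the same day, 0 of 8 members passed on any of the 3 days.

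**Figure D1:**
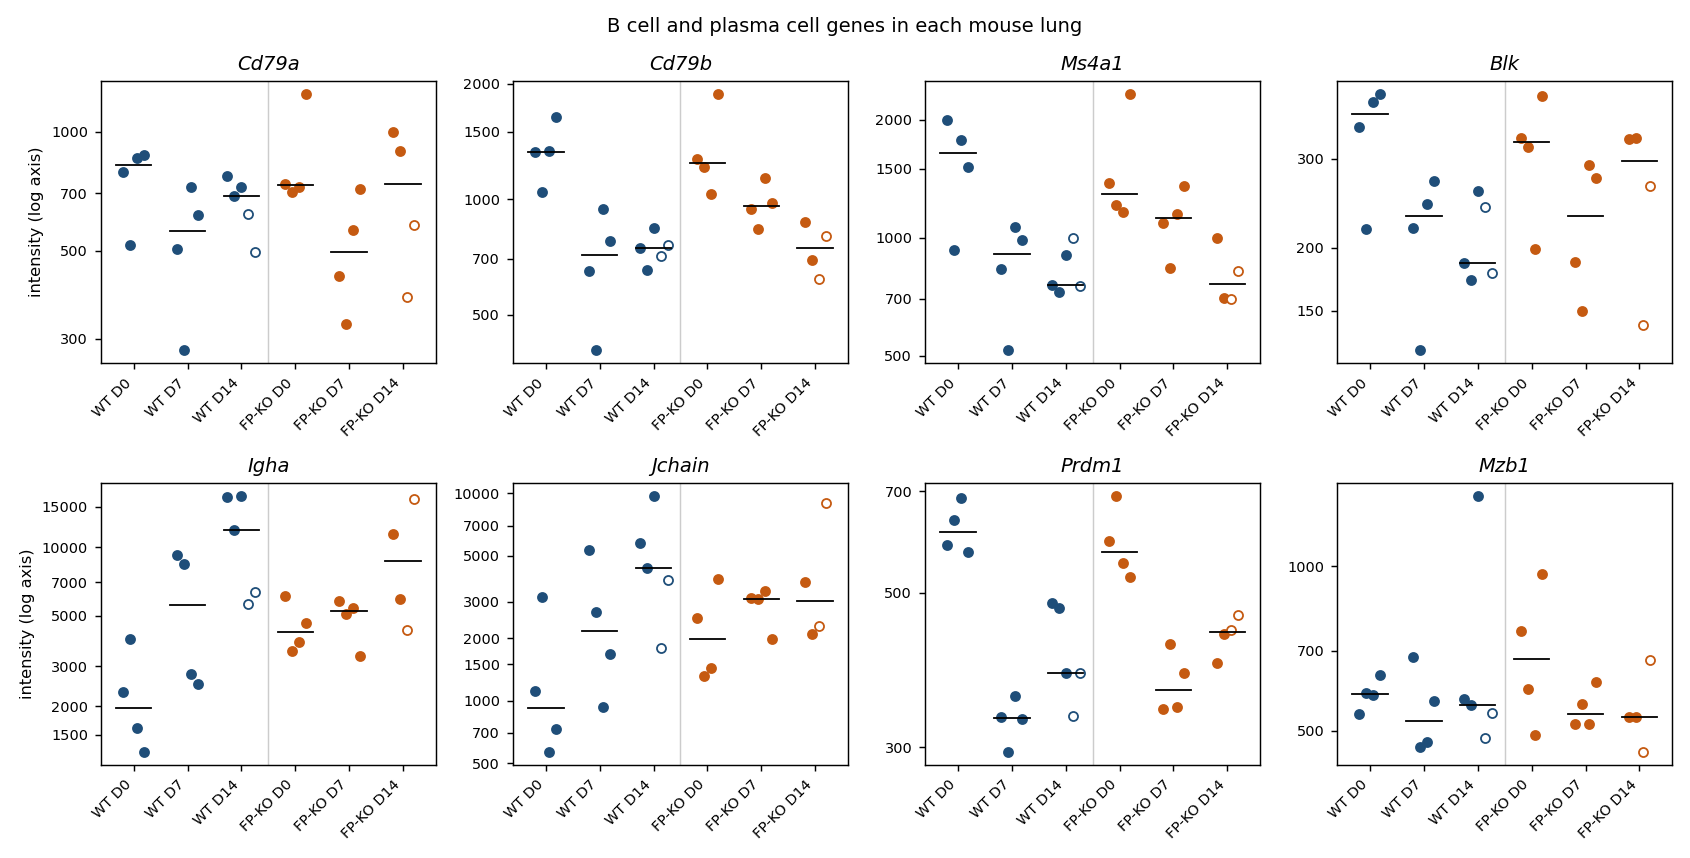
Intensity (log axis) of each member in each mouse lung, by genotype and day, with a line at the group median. Open circles are Day 14 mice WT No. 4 and 5 and FP-KO No. 3 and 4, the other symbols all other mice, and Igha in WT lungs runs from 1261 to 3967 on Day 0 and from 5620.3 to 16829 on Day 14.

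Igha, the constant region of the IgA heavy chain, had the largest change of the members in WT lungs. Its intensity in mice No. 1 to 4 on Day 0 was 2310.4, 3967, 1610.1 and 1261. On Day 7 it was 9199, 8387, 2775 and 2496, and on Day 14, in No. 1 to 5, 16590.4, 11898, 16829, 5620.3 and 6357. On Day 7 mice No. 1 and 2 lay above the Day 0 range and No. 3 and 4 inside it, whereas every WT Day 14 mouse lay above every Day 0 mouse. The rise was 1.21 ± 0.47 on Day 7 (2.32-fold, adjusted p = 0.0482) and 2.40 ± 0.45 on Day 14 (5.30-fold, adjusted p = 0.000212). The Day 7 call is marginal: it was lost in 11 of 21 alternatives, with adjusted p from 0.0179 to 0.175, and leaving out any of WT Day 0 No. 1, 3 or 4 or WT Day 7 No. 1 or 2 gave 0.90 to 1.26 without a call, lowest without WT Day 7 No. 1 (adjusted p = 0.175).

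In FP-KO lungs Igha intensity on Day 0 was 6094, 3506, 3827 and 4663 in mice No. 1 to 4. On Day 7 it was 5774, 5076, 5402 and 3337, and on Day 14 it was 11448, 5924, 4306 and 16288. The Day 7 values lay within or just below the Day 0 range, and on Day 14 mice No. 1 and 4 were above all FP-KO mice of the earlier days. Neither change passed, at 0.05 ± 0.47 on Day 7 (adjusted p = 0.948) and 0.92 ± 0.47 on Day 14 (1.89-fold, adjusted p = 0.293). On Day 0 itself Igha was 1.13 ± 0.47 higher in FP-KO than in WT lungs (2.18-fold, unadjusted p = 0.0254, adjusted p = 1), with WT No. 2 inside the FP-KO range. On Day 14 the difference was -0.36 ± 0.45 (adjusted p = 0.662).

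The interaction of genotype and time, which asks whether the Igha rise differed between genotypes, was -1.49 ± 0.65 at Day 14 (unadjusted p = 0.0314, adjusted p = 0.216) and did not pass. It was -2.03 with the first Day 14 set (WT No. 1 to 3, FP-KO No. 1 and 2; adjusted p = 0.0714), -0.66 with the second (adjusted p = 0.852), and -2.06 with array weights, the only 1 of 32 alternatives in which it passed (adjusted p = 0.0481). It is the Day 14 difference of -0.36 minus the Day 0 difference of 1.13, so most of it lies in the Day 0 values. Ordered by median intensity, the groups ran from WT Day 0 (1960.2) through FP-KO Day 0 (4245), FP-KO Day 7 (5239), WT Day 7 (5581) and FP-KO Day 14 (8686) to WT Day 14 (11898). Each pair of neighbours in that order had overlapping mice.

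The rise of Igha in WT lungs was smaller in the Day 14 set of WT No. 4 and 5, the 2 lowest mice of the group. With only WT No. 1 to 3 as Day 14 it was 2.98 (adjusted p = 2.4e-05), and with only WT No. 4 and 5 it was 1.54 (adjusted p = 0.053). The difference of FP-KO from WT on Day 14 was -0.91 (adjusted p = 0.271) within the first set and 0.47 (adjusted p = 0.869) within the second, so its sign was not shared. The FP-KO change of Igha from Day 0 was 0.95 with the first set and 0.89 with the second. Without FP-KO Day 14 No. 2 the genotype difference was -0.21 (adjusted p = 0.86).

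The other Igha probe sets gave like values. The first of these differed from WT Day 0 by 1.12 ± 0.50 on Day 7 and 2.42 ± 0.48 on Day 14, and the second by 1.11 ± 0.44 and 2.24 ± 0.42. With p-values adjusted over all 21403 probe sets tested, the Day 14 difference passed for all 3 (adjusted p = 0.000288, 0.000498 and 0.000275) and the Day 7 difference for none (adjusted p = 0.0567, 0.0978 and 0.0604). In FP-KO lungs the Day 14 changes were 0.92, 1.05 and 0.87, none of which passed. On Day 0 the difference of FP-KO from WT was 1.13, 1.02 and 0.96, each with an adjusted p of 1, and the groups did not overlap in the last. By their names, the 2 further probe sets can also bind related sequences, and probes of an immunoglobulin constant region may read related transcripts.

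Jchain, which joins IgA and IgM into polymers, followed Igha. Its intensity in WT lungs on Day 0 was 1118, 3181, 566 and 732. On Day 7 it was 5346, 2685, 932 and 1672, and on Day 14 it was 5799, 4363, 9769.8, 1789 and 3832. WT Day 0 No. 2, the highest of its group for Igha too, overlapped with the Day 14 mice, and the other Day 0 mice lay below all of them. The change of 1.00 ± 0.57 on Day 7 (adjusted p = 0.18) did not pass, and the rise of 2.06 ± 0.54 on Day 14 did (4.18-fold, adjusted p = 0.00466). With WT No. 4 and 5 alone as Day 14 the change was 1.27 and no longer passed (adjusted p = 0.216), and with WT No. 1 to 3 alone it was 2.59 (adjusted p = 0.00105). Without WT Day 0 No. 2 the Day 7 change was 1.5 and passed (adjusted p = 0.0439).

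In FP-KO lungs Jchain intensity was 2508, 1321, 1442 and 3850.2 on Day 0. On Day 7 it was 3119, 3081, 3377 and 1976, and on Day 14 it was 3747, 2102, 2283 and 8951. The 3 days overlapped, and FP-KO Day 14 No. 4, the highest of its group for Igha, was the highest FP-KO mouse of all days. The changes were 0.41 ± 0.57 on Day 7 and 0.79 ± 0.57 on Day 14 (adjusted p = 0.64 and 0.473). FP-KO differed from WT by 0.95 ± 0.57 on Day 0, 0.35 ± 0.57 on Day 7 and -0.33 ± 0.54 on Day 14, and the interaction at Day 14 was -1.28 ± 0.79 (adjusted p = 0.412). None of these passed. As with Igha, the Day 14 genotype difference had opposite signs within the sets, -1.17 with the first and 0.78 with the second, where the interaction was -2.12 and -0.17. The FP-KO change of Jchain on Day 14 was 0.47 with the first set and 1.10 with the second.

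Mzb1, a chaperone of B cells and plasma cells that helps antibody assembly, did not pass in any comparison. Its mean intensity in WT lungs was 584 ± 38.8 (SD, n = 4) on Day 0, 547 ± 100.1 (n = 4) on Day 7 and 699.7 ± 363 (n = 5) on Day 14. The Day 14 spread came from mouse No. 3, at 1346, the highest of its group for Igha and Jchain as well, while the other 4 lay between 485 and 571. In FP-KO lungs Mzb1 was 703 ± 208, 550.2 ± 48.1 and 548 ± 91.1 (SD, n = 4 each). Changes from Day 0 were -0.10 ± 0.24 and 0.10 ± 0.22 in WT and -0.27 ± 0.24 and -0.35 ± 0.24 in FP-KO lungs. Within the Day 14 sets the Mzb1 change was 0.30 and -0.20 in WT and -0.42 and -0.29 in FP-KO lungs. A rise of Igha and Jchain in WT lungs on Day 14 thus stood beside no change of Mzb1 that passed.

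Prdm1, the gene of Blimp-1, moved in WT lungs opposite to Igha and Jchain and had the smallest adjusted p of the members in WT lungs on both days. Its intensity was 586, 637, 685 and 572 on Day 0. It was 331, 295, 356 and 329 on Day 7, and 484, 476, 384, 332 and 384 on Day 14. Each WT mouse of Day 7 and Day 14 lay below each WT Day 0 mouse. Prdm1 fell by 0.91 on the log2 scale on Day 7 (SE 0.12, 0.533 of the Day 0 level, adjusted p = 3.77e-06) and by 0.64 on Day 14 (SE 0.11, adjusted p = 9.38e-05). The Day 14 difference of Prdm1 was -0.55 with WT No. 1 to 3 alone and -0.79 with No. 4 and 5 alone, and passed in both.

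In FP-KO lungs Prdm1 was 594, 690.3, 552 and 528 on Day 0. It was 341, 422, 342 and 384 on Day 7, and 396, 436, 443 and 465 on Day 14. Again no later mouse reached the Day 0 range. The fall was 0.62 on Day 7 (log2 difference -0.62 ± 0.12, adjusted p = 0.00065) and 0.46 on Day 14 (-0.46 ± 0.12, adjusted p = 0.0294). The Day 14 call was lost in 6 of 23 alternatives, among them FP-KO mice No. 3 and 4 alone (-0.36, adjusted p = 0.167, against -0.56 with No. 1 and 2 alone) and the fits without FP-KO Day 0 No. 1 or 2 or Day 14 No. 1 (-0.45, -0.39 and -0.41), and kept without FP-KO No. 2 (-0.45, adjusted p = 0.044). FP-KO and WT differed by -0.09 ± 0.12, 0.20 ± 0.12 and 0.09 ± 0.11 on Days 0, 7 and 14. By median the groups ran WT Day 7 (330.2), FP-KO Day 7 (363), WT Day 14 (384), FP-KO Day 14 (439.5), FP-KO Day 0 (573) and WT Day 0 (612), and the only neighbours without overlap were FP-KO Day 14 and FP-KO Day 0.

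**Figure D2:**
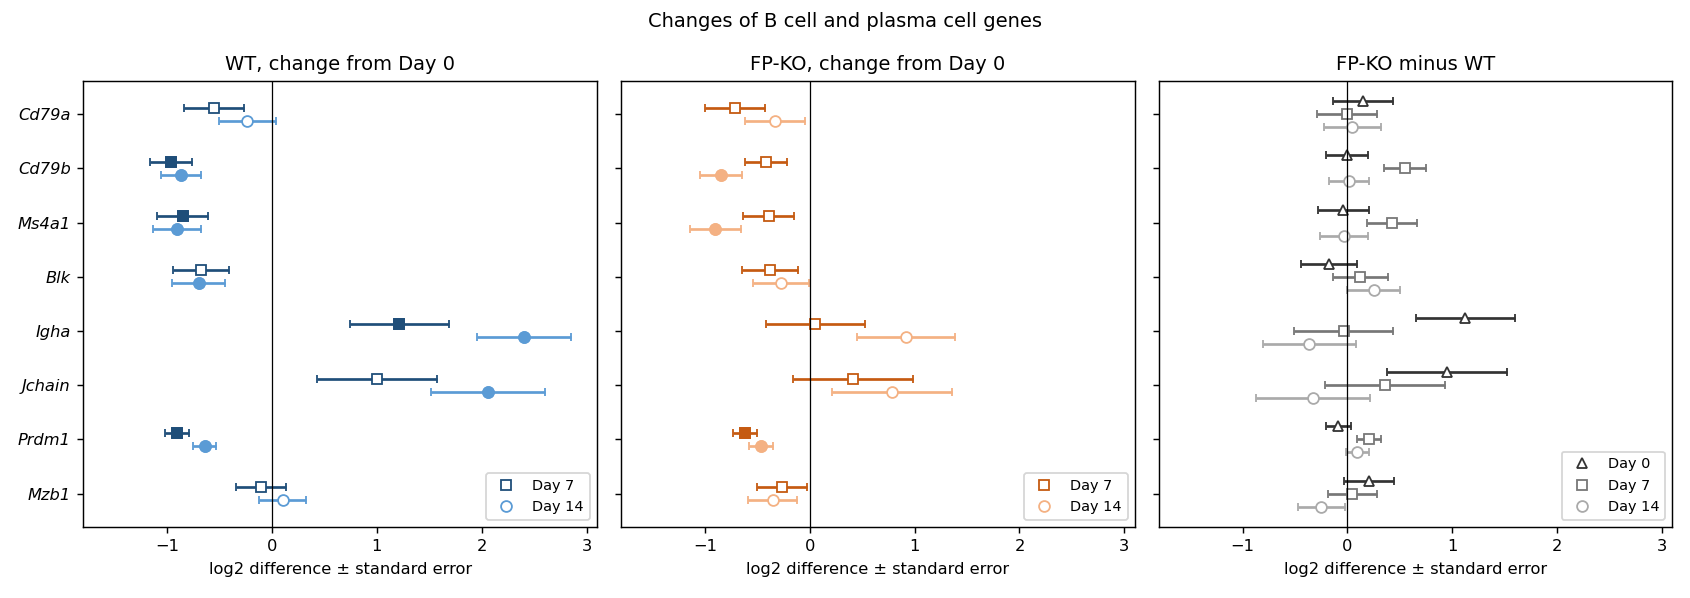
Log2 difference of each member from Day 0 in WT and in FP-KO lungs and between genotypes on each day; bars are standard errors of the limma fit and filled symbols passed at an adjusted p under 0.05. The rises of Igha and Jchain in WT lungs on Day 14 (2.40 and 2.06) stand opposite to the falls of Cd79b, Ms4a1, Blk and Prdm1, and no symbol is filled in the genotype panel.

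Cd79b, a signalling chain of the B cell receptor, fell in both genotypes. In WT lungs its intensity was 1326, 1045, 1336 and 1642 on Day 0. It was 652, 404, 945 and 778 on Day 7, and 749, 655, 840.3, 713 and 762 on Day 14. No WT mouse of Day 7 or Day 14 reached the Day 0 range. The log2 difference was -0.97 ± 0.20 on Day 7 (0.512 of the Day 0 level, adjusted p = 0.000678) and -0.87 ± 0.19 on Day 14 (0.548 of it, adjusted p = 0.00105), and both calls held in every alternative tried for them, 21 and 24. The Day 14 difference of Cd79b was -0.89 and -0.83 within the sets.

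In FP-KO lungs Cd79b was 1278, 1212, 1032 and 1884 on Day 0. It was 945, 839, 1135 and 976 on Day 7, and 875, 696, 619.9 and 801 on Day 14. On Day 7 mouse No. 3 lay inside the Day 0 range, and on Day 14 all 4 lay below it. The difference from Day 0 was -0.42 ± 0.20 on Day 7, which did not pass (adjusted p = 0.135), and -0.85 ± 0.20 on Day 14, which did (0.555 of the Day 0 level, adjusted p = 0.0211). On Day 7 Cd79b was 0.55 ± 0.20 higher in FP-KO than in WT lungs (1.46-fold, unadjusted p = 0.0121, adjusted p = 0.539). The interaction at Day 7, also 0.55 ± 0.28, did not pass (adjusted p = 0.785), so a slower fall in FP-KO lungs was not shown. On Day 14 the genotypes differed by 0.01 ± 0.19.

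Without FP-KO Day 14 No. 2 the Day 14 fall of Cd79b in FP-KO lungs was -0.81 (adjusted p = 0.0348). It was -0.80 with No. 1 and 2 alone (adjusted p = 0.0477) and -0.90 with No. 3 and 4 alone (adjusted p = 0.0942). For Cd79b the call was lost without FP-KO Day 0 No. 4, the highest mouse (-0.68, adjusted p = 0.0779), and without Day 14 No. 3, the lowest (-0.77, adjusted p = 0.0564).

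Ms4a1, which encodes the B cell surface protein CD20, fell in WT lungs as well. Its intensity there was 2000.4, 930.4, 1778 and 1515 on Day 0. It was 832, 516, 1067 and 986 on Day 7, and 759, 726, 902, 996 and 753 on Day 14. WT Day 0 No. 2 lay among the later mice, and the other 3 lay above them all. The difference was -0.85 ± 0.24 on Day 7 (adjusted p = 0.00824) and -0.90 ± 0.23 on Day 14 (0.534 of the Day 0 level, adjusted p = 0.00354). With WT No. 4 and 5 alone as Day 14 it was -0.79 and did not pass (adjusted p = 0.0914), and with No. 1 to 3 alone it was -0.98 (adjusted p = 0.00823).

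In FP-KO lungs Ms4a1 was 1377, 1214, 1165 and 2327 on Day 0. It was 1091, 836, 1152 and 1359 on Day 7, and 1000.0, 700.1, 697 and 821 on Day 14. The Day 14 mice lay below all Day 0 mice, while Day 7 overlapped with both. The difference from Day 0 was -0.39 ± 0.24 on Day 7 (adjusted p = 0.252) and -0.90 ± 0.24 on Day 14 (adjusted p = 0.0404). That Day 14 call was lost in 14 of 23 alternatives, with adjusted p up to 0.14. It was lost without any 1 of the FP-KO mice of these days but Day 0 No. 3, as without Day 14 No. 2 (-0.83, adjusted p = 0.0754) and without Day 0 No. 4 (-0.67, adjusted p = 0.14). Nor did Ms4a1 pass within a Day 14 set, at -0.85 with FP-KO No. 1 and 2 (adjusted p = 0.0789) and -0.95 with No. 3 and 4 (adjusted p = 0.138). The second Ms4a1 probe set differed by -0.96 ± 0.25 and -0.97 ± 0.24 in WT and by -0.32 ± 0.25 and -0.80 ± 0.25 in FP-KO lungs on Days 7 and 14. Adjusted over all probe sets its WT falls passed (adjusted p = 0.00605 and 0.00343) and its FP-KO ones did not (adjusted p = 0.404 and 0.0901).

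Blk, a Src-family kinase of B cells, lay lower in WT lungs on Day 7 and Day 14 than on Day 0, with overlap between the days. Its intensity was 346, 218, 389 and 403 on Day 0. It was 219, 125, 244 and 271 on Day 7, and 186, 173, 259, 241 and 179 on Day 14. WT Day 0 No. 2 again lay among the later mice. The difference was -0.68 ± 0.26 on Day 7 (adjusted p = 0.0502), just outside the threshold, and -0.70 ± 0.25 on Day 14 (0.615 of the Day 0 level, adjusted p = 0.0309). The Day 14 call was lost in 9 of 24 alternatives, with adjusted p from 0.00773 to 0.16, among them without WT Day 0 No. 1, 3 or 4 or Day 14 No. 1, 2 or 5 (-0.67 to -0.63). The Day 7 difference passed in 9 of 21, as without WT Day 0 No. 2 (-0.83) or Day 7 No. 4 (-0.80). In FP-KO lungs Blk had means of 311 ± 83.1, 226 ± 68.2 and 266 ± 88.6 (SD, n = 4 each), and neither -0.38 ± 0.26 on Day 7 nor -0.28 ± 0.26 on Day 14 passed. The FP-KO Day 14 difference of Blk was 0.08 with No. 1 and 2 alone and -0.63 with No. 3 and 4 alone, so its direction turned between the sets. In WT lungs it was -0.72 (adjusted p = 0.0318) and -0.67 (adjusted p = 0.16) within them.

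Cd79a, the partner chain of Cd79b in the receptor, passed in no comparison of the fit of all mice. Its mean intensity in WT lungs was 760.0 ± 165 (SD, n = 4) on Day 0, 532 ± 189.5 (n = 4) on Day 7 and 660.4 ± 107 (n = 5) on Day 14. The FP-KO means were 854 ± 262, 509 ± 169 and 714 ± 284 (SD, n = 4 each). The differences from Day 0 were -0.56 ± 0.28 and -0.24 ± 0.27 in WT and -0.71 ± 0.28 and -0.33 ± 0.28 in FP-KO lungs on Days 7 and 14, with adjusted p from 0.0739 to 0.555. The FP-KO Day 14 mice fell into both Day 14 sets: No. 1 and 2 had 998 and 897, and No. 3 and 4 had 382 and 581. With No. 1 and 2 alone the FP-KO Day 14 difference of Cd79a was 0.15, and with No. 3 and 4 alone -0.82, so its direction turned between the sets, while in WT lungs it was -0.11 and -0.43. From FP-KO Day 7 to Day 14 Cd79a was higher with No. 1 and 2 alone (0.86, adjusted p = 0.0388). The FP-KO Day 7 difference of -0.71 had an unadjusted p of 0.0205 in the limma fit. It passed without FP-KO Day 7 No. 4 (-0.88, adjusted p = 0.0344) and with array weights (-0.72, adjusted p = 0.0426).

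Between Day 7 and Day 14, 0 of 8 members passed in either genotype, with 2 in each at an unadjusted limma p under 0.05. Of 12062 genes tested, 3160 in WT and 4494 in FP-KO lungs had such an unadjusted p. The 2 of 8 members were thus not above the share of all genes in either genotype. Over all genes 3.56% rose and 2.37% fell in WT lungs between those days, and 10.7% rose and 12.0% fell in FP-KO lungs. In WT lungs the 2 members were Igha (1.19 ± 0.45, adjusted p = 0.1) and Prdm1 (0.26 ± 0.11, adjusted p = 0.134), and in FP-KO lungs Cd79b (-0.43 ± 0.20, adjusted p = 0.116) and Ms4a1 (-0.51 ± 0.24, adjusted p = 0.127). With WT No. 1 to 3 alone as Day 14, Igha (1.77, adjusted p = 0.00597), Jchain (1.59, adjusted p = 0.0451) and Prdm1 (0.36, adjusted p = 0.0352) rose from Day 7, and with No. 4 and 5 alone the same differences were 0.33, 0.26 and 0.12 and did not pass. Without WT Day 14 No. 4 Igha also passed (1.43, adjusted p = 0.0493).

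Between the genotypes, 0 of 8 members passed in the limma fit on Day 0, Day 7 or Day 14, and 1, 1 and 0 had an unadjusted p under 0.05 (Igha and Cd79b, given above). Of 12062 genes tested, 403, 877 and 3080 had such an unadjusted p on these days. The 0 of 8 members on Day 14 thus stood beside the largest share of all genes. On Days 0 and 7 only 0.00829% of all genes rose and 0.00829% fell, and on Day 14 4.89% were higher and 5.64% lower in FP-KO lungs. The members' Day 14 differences ran from -0.36 to 0.25. Some genes of the lists followed below did pass between genotypes on Day 14. Lower in FP-KO lungs were, among others, Cxcl12 (-0.88 ± 0.15), Cd72 (-0.64 ± 0.20), Malt1 (-0.56 ± 0.16), Tnfrsf13b (-0.51 ± 0.14) and Ssr4 (-0.34 ± 0.11). Higher were Herpud1 (0.62 ± 0.13) and Ralgps2 (0.39 ± 0.13). Cxcl12 (-0.88 ± 0.22) and Bcl10 (-0.42 ± 0.12) passed in the Day 14 interaction too. Their values within the Day 14 sets are not given here. Neither interaction passed for any member, where 0% of all genes passed in each direction at Day 7 and 1.28% up and 1.84% down at Day 14. At an unadjusted p under 0.05 the interactions had 0 and 1 members, the latter being Igha, of 765 and 2200 genes. These p-values do not show that the genotypes were alike, since a standard error of 0.45 for Igha leaves room for large differences.

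Mice of a group varied together across members. WT Day 0 No. 2 had the lowest Cd79a, Cd79b, Ms4a1 and Blk of its group and the highest Igha and Jchain. WT Day 7 No. 2 had the lowest value of its group for the same 4 B cell genes and for Prdm1 and Mzb1. FP-KO Day 0 No. 4 had the highest Cd79a, Cd79b, Ms4a1, Blk, Jchain and Mzb1 of its group.

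Over the 25 mice, Cd79b and Ms4a1 correlated at Pearson r = 0.925 and Spearman rho = 0.914, and Igha and Jchain at 0.909 and 0.875. All 4 had a permutation p of 1e-05 (two-sided, 100000 resamples, the smallest they can give), adjusted over 28 pairs to 7e-05 for r and 0.00014 for rho. Every permutation p here shuffled all mice without regard to their group, so it also takes in shifts between groups that both genes share. No p was computed within groups. Within groups, as deviations from the group means, r was 0.816 and 0.861, and without the 2 mice farthest on the first gene it was 0.886 and 0.875. Cd79a and Blk correlated at r = 0.805 and rho = 0.777 (adjusted permutation p = 7e-05 and 0.00019) and at 0.825 within groups.

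Between the B cell and plasma cell members, Cd79b and Igha correlated at r = -0.566 and rho = -0.597 (permutation p = 0.0034 and 0.0019, adjusted 0.0095 and 0.0066). Within groups, where no p was computed, r was -0.227. Cd79b and Prdm1, at r = 0.621 and rho = 0.618 (adjusted permutation p = 0.0029 and 0.0044) over all mice, had -0.254 within groups, so their relation did not hold there. Jchain and Mzb1 were at r = 0.450 and rho = 0.296 over all mice (adjusted permutation p = 0.052 and 0.18) and at 0.646 within groups. Prdm1 and Igha were at -0.373 over all mice and 0.142 within groups (adjusted permutation p for all mice 0.099).

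**Figure D3:**
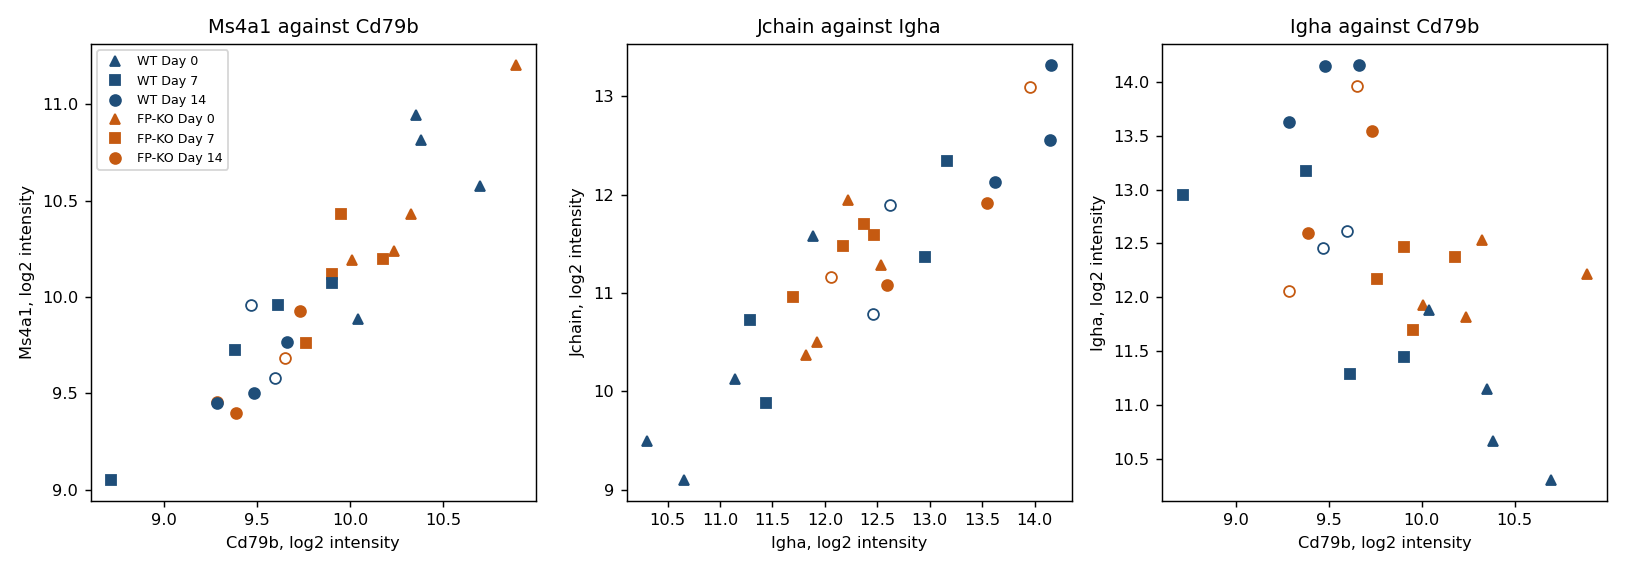
Log2 normalized intensity of Ms4a1 against Cd79b, Jchain against Igha, and Igha against Cd79b, 1 point a mouse (blue WT, orange FP-KO; triangles Day 0, squares Day 7, circles Day 14, open circles the Day 14 mice WT No. 4 and 5 and FP-KO No. 3 and 4). The first 2 pairs run together over the 25 mice (r = 0.925 and 0.909), and in the last pair the WT Day 0 mice lie at high Cd79b and low Igha.

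The genes outside the members most like each of them over the 25 arrays, by Pearson r and as a description, were in part of the same lineage. Cd79b was nearest to the immunoglobulin variable segment Ighv14-2 (0.935), the B cell adaptor Bank1 (0.911) and the MHC class II chain H2-Ob (0.876), and Ms4a1 to the same 3 genes (0.935 for Bank1, 0.913 for H2-Ob and 0.911 for Ighv14-2). Jchain was nearest to the light chain segment Iglv1 (0.838), with Ptpa (0.798) and Igkv8-30 (0.789) next. Mzb1 was nearest to Igkv8-30 (0.661), Ighm (0.619) and Il2rb (0.602). Blk had Srpk3 (0.870), Satb1 (0.867) and the follicle-homing receptor Cxcr5 (0.821). Igha had the fibril-associated collagen Col12a1 (0.831), Ppp4r3a (0.821) and B4galnt1 (0.812), Prdm1 had Prickle1 (0.914), Tril (0.903) and Rnf186 (0.901), and Cd79a had Dgka (0.858), Nup210 (0.831) and Hp1bp3 (0.831).

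The other genes of the B cell programme were followed in lists that exclude the 8 members, and the list counts of all mice below are beside the same backgrounds. Counts within a Day 14 set or without a mouse have other backgrounds, which are not given here. Of 18 further B cell identity genes tested, 2 rose and 7 fell in WT lungs on Day 7 and 2 rose and 10 fell on Day 14, with list medians of -0.47 and -0.60. The largest on Day 7 were Vpreb3 (-1.25 ± 0.16), Cd72 (1.10 ± 0.21), Ralgps2 (-0.94 ± 0.13) and the complement receptor Cr2 (-0.69 ± 0.27). On Day 14 they were the B lineage factor Ebf1 (-1.51 ± 0.42), Vpreb3 (-1.19 ± 0.16), Ralgps2 (-1.03 ± 0.13) and Cd37 (-1.03 ± 0.22). Cd72, a co-receptor also reported in myeloid cells, thus went against its list. In FP-KO lungs 1 rose and 3 fell on Day 7 and 0 rose and 5 fell on Day 14 (medians -0.24 and -0.49). They were led by Fcer2a (-0.78 ± 0.23) on Day 7 and Cd37 (-1.03 ± 0.23) on Day 14. The FP-KO Day 7 counts were near the shares of all genes, of which 12.6% rose and 10.7% fell. Bank1, which was nearest to Ms4a1, fell by 0.63 in WT and 0.73 in FP-KO lungs on Day 14 (log2). With WT No. 4 and 5 alone as Day 14 the WT counts were 2 up and 2 down, and without FP-KO No. 2 the FP-KO counts were 0 up and 3 down.

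Genes of B cell receptor signalling went the other way: of 13 tested, 6 rose and 1 fell in WT lungs on both days (medians 0.30 and 0.31), among them Malt1 (0.90 ± 0.17 on Day 7 and 0.91 ± 0.16 on Day 14), Btk (0.48 ± 0.17 on Day 7) and Vav1 (0.47 ± 0.13 on Day 7), while Nfatc1 fell (-0.44 ± 0.12 on Day 7). Most of these kinases and adaptors also act in myeloid cells. In the same lungs 9 of 10 macrophage markers rose on Day 7 and 8 on Day 14, with a summed intensity of 12782 to 15597 on WT Day 0 that reached 32289 to 42553 a week later and 31309 to 36403 at the end, and no macrophage marker was below the floor on every array. In FP-KO lungs 1 signalling gene rose on Day 7 (Malt1, 0.79 ± 0.17) and 0 passed on Day 14, beside 7 and 4 macrophage markers that rose. The part of macrophages in the signalling list was not tested. With WT No. 4 and 5 alone as Day 14 the signalling counts were 2 up and 1 down.

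A list of 23 further immunoglobulin symbols had 5 on the array, of which 4 were tested and 0 passed in any comparison of all mice. It does not hold every immunoglobulin gene of the array, such as Ighv14-2 and Igkv8-30 above. Ighm, the IgM heavy chain, had a mean of 4675 ± 2364 (SD, n = 4) in WT lungs on Day 0, 5784 ± 3482 (n = 4) on Day 7 and 10303 ± 6257 (n = 5) on Day 14, and its change on Day 14 was 1.15 ± 0.46 (adjusted p = 0.0535). Iglv1 (0.89 ± 0.42) and Ighg3 (0.86 ± 0.51) also did not pass on Day 14, and Igk was at 0.03 ± 0.59. In FP-KO lungs the Day 14 change of Ighm was 0.82 ± 0.49 (adjusted p = 0.375). With WT No. 1 to 3 alone as Day 14, 2 of the 4 rose.

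Of 18 genes of the plasma cell programme and its secretory pathway, 7 rose and 1 fell in WT lungs on Day 7 and 4 rose and 2 fell on Day 14 (medians 0.33 and 0.19). Those named by size were Slamf7 (0.99 ± 0.30 on Day 7 and 0.78 ± 0.29 on Day 14), the disulfide isomerase Txndc5 (0.63 ± 0.10 on Day 14), Ell2 (0.51 ± 0.10 on Day 7) and, falling, the ER stress protein Herpud1 (-0.67 ± 0.14 on Day 7). Many of these serve any secreting cell. The WT Day 14 counts were near or below the shares of all genes, of which 19.1% rose and 19.5% fell. Other genes of the list, named for their roles after values were seen, did not pass in WT lungs on either day: Irf4 (0.42 ± 0.22 and 0.17 ± 0.21), Sdc1 (0.01 ± 0.15 and 0.09 ± 0.14), Xbp1 (0.07 ± 0.08 and -0.12 ± 0.08) and Derl3 (-0.11 ± 0.29 and -0.04 ± 0.27). Tnfrsf17, the BCMA receptor of plasma cells, was too low to test, at 7.60 to 100.9. In FP-KO lungs 3 rose and 1 fell on Day 7 (median 0.14), such as Ell2 (0.50 ± 0.10) and Sdc1 (0.43 ± 0.15), and 0 passed on Day 14. The FP-KO Day 7 counts were near or below the shares of all genes, of which 12.6% rose and 10.7% fell. With WT No. 4 and 5 alone as Day 14, 2 rose and 1 fell.

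Among factors that attract B cells or keep them alive, with their receptors, Cxcl13 and Cxcl12 rose on Day 7 in both genotypes. Of 11 such genes tested, 5 rose and 1 fell in WT lungs on Day 7 and 4 rose and 2 fell on Day 14, and 3 rose on Day 7 and 0 on Day 14 in FP-KO lungs. Cxcl13, the chemokine that draws B cells into follicles, had a mean of 379 ± 155 on WT Day 0 (SD, n = 4), 2007 ± 380.1 on Day 7 (n = 4) and 817 ± 157 on Day 14 (n = 5). The FP-KO means of Cxcl13 were 422 ± 207, 1830.5 ± 392 and 639 ± 56.4 (SD, n = 4 each). It rose by 2.49 ± 0.28 in WT and 2.21 ± 0.28 in FP-KO lungs on Day 7 and fell again between Days 7 and 14 (-1.32 ± 0.26 and -1.53 ± 0.28). Cxcl12 rose by 1.59 ± 0.16 in WT lungs and 1.37 ± 0.16 in FP-KO lungs on Day 7. Il6 also rose in WT lungs, but its WT Day 0 intensities of 1 to 45.6 lay around the floor of 24.3, so the size of its change is not given. Tnfrsf13c, the BAFF receptor of B cells, fell by 0.67 on WT Day 7. The rise of Cxcl13 and Cxcl12 in WT lungs thus stood beside lower, not higher, Cd79b and Ms4a1.

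Genes of the germinal centre and of IgA transport were few. Of 4 germinal centre genes tested, 1 rose on Day 7 (Gcsam, 0.92 ± 0.22) and 2 rose and 1 fell on Day 14 (Bcl6, -0.62 ± 0.15) in WT lungs, and 0 passed in FP-KO lungs. Of 6 genes of IgA transport and mucosal secretion, 0 rose and 3 fell on each day in WT lungs, and 0 rose and 3 fell on Day 7 and 0 passed on Day 14 in FP-KO lungs. Pigr, the receptor that carries polymeric IgA with its J chain across the epithelium, fell by 0.57 in WT and 0.63 in FP-KO lungs on Day 7 (log2) and by 0.69 in WT lungs on Day 14. Pigr and Igha therefore changed in opposite directions in WT lungs on both days.

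Some markers of T cells and NK cells also fell. Of 9 T cell markers tested, 0 rose and 2 fell on Day 7 and 0 rose and 4 fell on Day 14 in WT lungs, and 0 and 3 fell in FP-KO lungs, where the T cell median on Day 7 was 0.09. The T cell share on WT Day 7 was near the background of 18.0%. Cd8b1 changed by -1.06 ± 0.16 on WT Day 14. Of 6 NK cell markers, 4 and 6 fell in WT and 2 and 4 in FP-KO lungs, such as Gzma (-1.33 ± 0.23 on WT Day 7). The summed NK intensity was 3328 to 4231, 1701 to 1971 and 1058 to 2036 over the 3 days in WT lungs and 3177 to 6373, 2548 to 2916 and 1679 to 2388 in FP-KO lungs. That of the T cell list was 2534 to 2960, 2186 to 2678 and 2058 to 2378 in WT and 2741 to 3506, 2815 to 3373 and 1837 to 2416 in FP-KO lungs. The part of lymphocyte numbers as a whole in the fall of the B cell members was not tested. Of 7 plasmacytoid dendritic cell markers, which share several B cell genes, 2 rose and 1 fell on Day 7 and 1 rose and 1 fell on Day 14 in WT lungs, and 2 rose on Day 7 in FP-KO lungs. With so few genes tested, these counts beside the shares of all genes are not read as a result about that list. All 4 proliferation genes rose in WT lungs on both days and in FP-KO lungs on Day 7.

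Lymph node or thymus carried along with a lung would bring B cell transcripts too, so their markers were read. Of 5 lymph node stroma genes on the array 3 were tested, and Cxcl13 and Il7 rose in WT lungs on both days, whereas Glycam1 (means of 4.85 to 19.7 over the groups) and Madcam1 (30.7 to 44.7) were near or under the floor of 24.3. Of 5 thymocyte genes 1 was tested, Cd1d1 (-1.04 ± 0.26 on WT Day 14). Of 3 erythroid genes, read as a measure of blood in the lung, 2 were tested, and the haem enzyme gene Alas2 fell on WT Day 7 (-1.71 ± 0.47). Their summed intensity was 3087 to 3773 on WT Day 0, then 240.6 to 2165 and, at the last time, 1905 to 2879, so it was lower where Cd79b and Ms4a1 were lower, and its part in their fall was not tested. In FP-KO lungs the erythroid sums were 2443 to 4477, 789.9 to 2389 and 2099 to 4110. Their median was lowest on Day 7 (1780) and higher again on Day 14 (2416), while mean Cd79b (974 and 748) and Ms4a1 (1109.5 and 805) were lower on Day 14 than on Day 7.

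**Figure D4:**
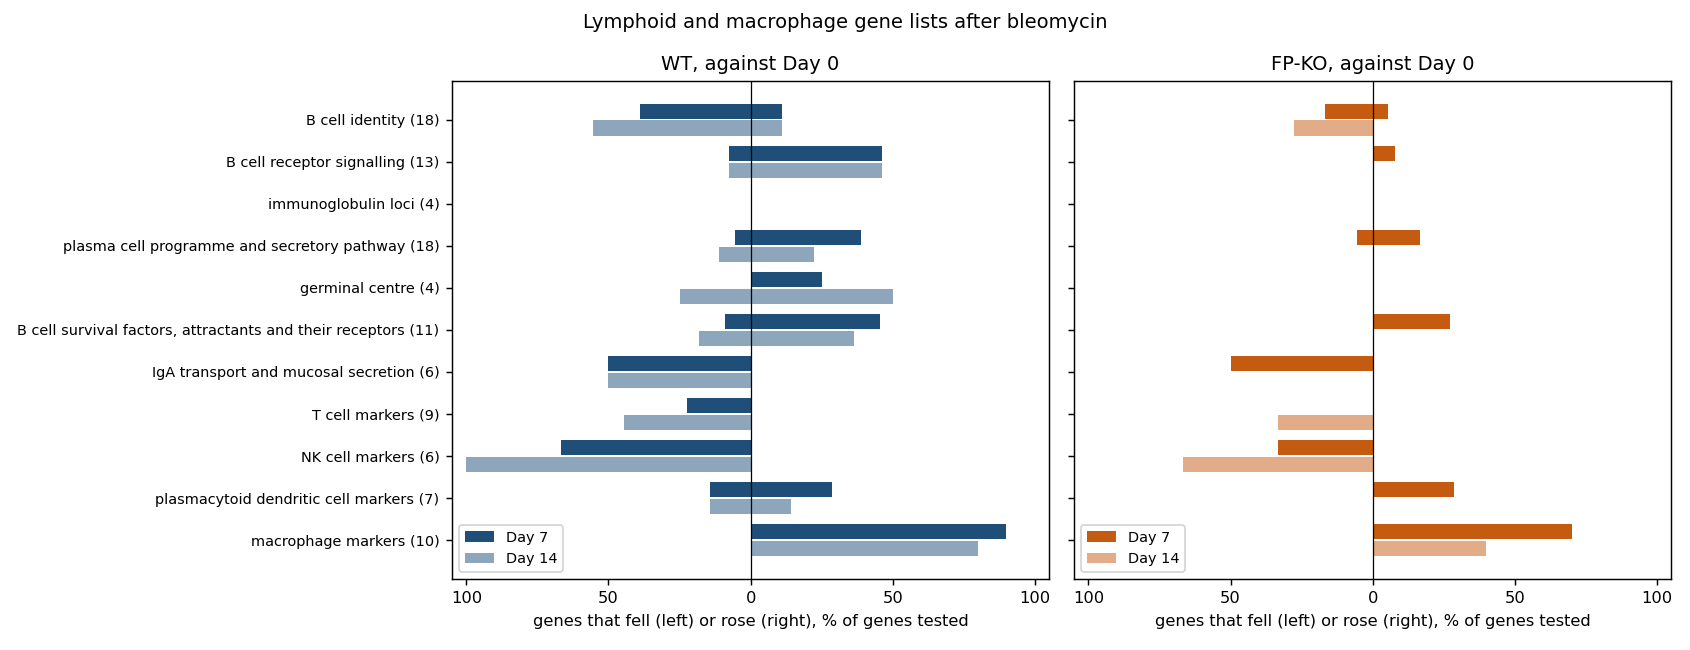
Percent of the genes tested in each list (number in brackets) that rose (right) or fell (left) from Day 0 at an adjusted p under 0.05, in WT and FP-KO lungs on Day 7 (dark) and Day 14 (light). B cell identity, T cell and NK cell lists lie mainly to the left, as in the 10 of 18 B cell genes that fell on WT Day 14, and macrophage markers lie to the right. Some B cell identity genes rose, and no T cell marker passed on FP-KO Day 7.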

How the data were processed

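Lung RNA of 25 mice was hybridised to Affymetrix mouse arrays, per the labels. The deposited values are linear intensities, 1 per probe set and array; their trimmed mean (2% left out at each end) is 500 on each array, so the authors scaled them to 500, with software not given in the sources used here. No 2 arrays are identical. The number of arrays limits the precision. Groups and mouse numbers came from the titles.

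Intensities were floored at 24.3 (20th percentile), taken to log2 and quantile-normalized, since array medians ranged over 0.432. Probe sets of controls (64), of several symbols (932) or of none (9160) were left out of the gene tests, as symbols follow the platform annotation. A gene was its probe set with the highest mean and was tested when it exceeded the median of the array on 4 or more arrays. R 4.3.3 with limma 3.58.1 fitted 6 group means (lmFit, contrasts.fit, eBayes) on all arrays, giving 11 contrasts with Benjamini-Hochberg adjustment over 12062 genes. The fit was tested on simulated data. Figures used python 3.11.15 and matplotlib 3.10.9. Correlations were tested by permutation over all mice, without regard to group.

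The members and gene lists were chosen with earlier results of these data known. Named besides the members are Ptgfr, some of the up to 4 largest genes that passed in each list and contrast, and the 3 genes most correlated with each member. Sftpc, Xbp1, Irf4, Sdc1, Derl3, Tnfrsf17, Bank1, Pigr, Ighm, Iglv1, Ighg3, Igk, Glycam1 and Madcam1 were added for their roles after values were seen. The alternatives were other floors, filters, normalizations, probe set choices, eBayes settings, array weights, a replicate block, fewer samples, and each mouse left out.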

Additional observations from a re-analysis of the deposited data

Results flagged for a closer look

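The gap of a mouse to its nearest neighbour was taken on normalized log2 intensity, as a share of the group's range. In 66 groups of 4 or 5 mice (11 probe sets by 6 groups), 3 held a mouse whose gap was above Dixon's 95% critical value. Chance alone gives such a gap in about 1 of 20 groups. The intensities printed here are as deposited, so they do not give these gaps exactly. Cd79a in FP-KO Day 0 mouse No. 4 was 1247, with the others between 706 and 738 (gap 0.898). Blk in WT Day 0 mouse No. 2 was 218, with the others between 346 and 403 (gap 0.831). Mzb1 in WT Day 14 mouse No. 3 was 1346, with the others between 485 and 571 (gap 0.881). Those 3 mice also lay at the end of their group for Jchain, among other members.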

How the results depend on the processing

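No alternative turned the sign of a member's change that had passed. The calls of Cd79b and Prdm1 in WT lungs, of Ms4a1 on WT Day 7 and of Prdm1 on FP-KO Day 7 held in every alternative tried for them. Members that passed between FP-KO Day 14 and Day 0 numbered 1 with arrays at a common median, 0 with only the groups compared in the fit and 0 with FP-KO No. 3 and 4 alone, against 3. Between WT Day 14 and Day 7 they were 3 with array weights, 1 with the replicate block and 3 with WT No. 1 to 3 alone, against 0. With array weights 2 passed on FP-KO Day 7, against 1, and 1 in the Day 14 interaction (Igha, -2.06, adjusted p = 0.0481), against 0. Between FP-KO Day 14 and Day 7 the replicate block gave 1 and FP-KO No. 1 and 2 alone gave 1, against 0, and between WT Day 14 and Day 0 WT No. 4 and 5 alone gave 2, against 6. The number of all genes passed moved with the setting too, with ranges given below. A changed member count is therefore not a result about the members alone.

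Leaving out 1 mouse at a time, 3 to 6 members passed on WT Day 7, 5 to 6 on WT Day 14, 0 to 1 between these days, 1 to 2 on FP-KO Day 7 and 1 to 3 on FP-KO Day 14. Leaving out 1 mouse gave 0 members between genotypes or in an interaction. With 1 mouse left out, the number of all genes passed was 3548 to 4033 on WT Day 7, 3835 to 4931 on WT Day 14 and 193 to 1445 between these days. It was 1861 to 3135 on FP-KO Day 7, 101 to 569 on FP-KO Day 14 and 1067 to 3176 between these days. Between genotypes on Day 14 it was 392 to 1546, and in the Day 14 interaction 124 to 611. Over all the alternatives together, it ranged from 0 to 1745 between FP-KO Day 14 and Day 0 (393 as reported). It ranged from 15 to 3545 between WT Day 14 and Day 7 (716) and from 283 to 4308 between FP-KO Day 14 and Day 7 (2742). Between genotypes on Day 14 it ranged from 2 to 2858 (1270), and in the Day 14 interaction from 0 to 1006 (376). From WT Day 0 it ranged from 3382 to 6300 on Day 7 (4236) and from 2485 to 7784 on Day 14 (4664). On FP-KO Day 7 it ranged from 1861 to 3916 (2814).

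Mice share numbers across groups in the titles. The deviations of same-numbered WT and FP-KO mice from their group means correlated above 0.1 for 11 of 12 pairs (Day 0 0.119 to 0.345, Day 7 0.141 to 0.221, Day 14 0.195 to 0.437), the exception being Day 14 No. 3 at -0.308. In that pair the WT mouse belongs to the first Day 14 set and the FP-KO mouse to the second, and the part of the sets in its value was not tested. As not every pair passed 0.1 and the labels name no shared litter or batch, the numbers were not taken as pairs throughout, which leaves pairing possible. With the replicate block, 5 members passed on WT Day 7 (Blk added, -0.68, adjusted p = 0.0429), 6 on WT Day 14, 1 on FP-KO Day 7, 3 on FP-KO Day 14, and 0 between genotypes on each day. The block added Igha between WT Day 14 and Day 7 (1.39, adjusted p = 0.0381) and Ms4a1 between FP-KO Day 14 and Day 7 (-0.51, adjusted p = 0.0433). It moved the genes passed from 716 to 1551 between WT Day 14 and Day 7 and from 376 to 590 in the Day 14 interaction. WT Day 14 No. 5 is the only mouse of that number, so the block took it out of every WT Day 14 change. The Igha value of 1.39, against 1.19 without the block, is therefore that of the other WT Day 14 mice. What else moved these counts was not tested.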
